A study of Rattus norvegicus with 18 samples.

Results

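Aminoacyl-tRNA synthetases are the enzymes that join an amino acid to the tRNA that reads its codons, and they supply every charged tRNA used by the ribosome. The gene names are short: the letter of the amino acid, then "ars", and a final 2 for the gene whose protein works in mitochondria. The members were chosen by such a name, which 36 protein-coding genes of the 32545 deposited genes had. Of these, 17 encode cytosolic enzymes or subunits, 17 encode mitochondrial enzymes, and Gars and Kars, for glycine and lysine, each make the enzyme of both compartments. For testing, 3 or more libraries had to hold an FPKM of 1 or above, which 35 members did and Mars2, the mitochondrial methionine enzyme, did not. Eprs, which carries the glutamate and proline activities in 1 protein, falls outside the name pattern and is described below as a related gene.

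Cells hold separate sets of synthetases for protein made in the cytosol and for the few proteins that mitochondria make themselves. Synthetases fall into class I and class II, which have unrelated catalytic folds. Several cytosolic enzymes sit together with Eprs on the scaffold proteins Aimp1, Aimp2 and Eef1e1 in the multisynthetase complex. When amino acids run short or the cell is stressed, the factor ATF4 is known to raise many cytosolic synthetase genes together with amino acid transporters and synthesis enzymes.

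Poly(A) RNA of H9C2, an established line from embryonic rat heart, was sequenced as 18 libraries, with 6 groups of 3. The NC cells had no treatment, and ES10 and ES50 cells were given 10 or 50 electric pulses of 100 µs at 1500 V/cm. The P cells were kept in 50 µmol/L PE, an agent the labels do not spell out, for 48 h, and P_ES10 and P_ES50 cells had PE and then 10 or 50 pulses of the same kind. All groups share the 1 line, replicates are only numbered in the labels, and p-values therefore measure the spread between these libraries, which may be technical. The labels call the cells myocardium. Of 10 cardiomyocyte markers 4 averaged at least 1 FPKM in NC and 3 in ES50. The list summed to 18.3 FPKM in NC and 55.1 in ES50, with Tnnt2, a troponin gene, at 12.1 and 40.2. The 4 markers tested in limma split in ES50 versus NC, with 2 higher and 2 lower at an adjusted p under 0.05. The lower ones were Tnni3 and Nppb, with log2 changes of -1.13 and -0.40 in deposited FPKM. Of all tested genes 31.9% were higher and 40.1% lower there. Myh6 and Actc1, which define cardiac muscle, averaged at most 0.03 FPKM in every group. Of 5 skeletal myoblast markers 2 averaged at least 1 FPKM in NC, and the list summed to 42.6 FPKM there and 79.6 in ES50, with Myod1 at 32.0 and 57.5. Of 5 fibroblast and smooth muscle markers 4 averaged at least 1 FPKM in NC, and this list summed to 4067 FPKM there and 5642 in ES50. Its tested genes split in ES50 versus NC. In deposited FPKM, log2 changes were 1.34 for Acta2 and 1.26 for Tagln, and -2.55 for Col1a1 and -3.09 for Col3a1. The part of these markers in the results was not tested.

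Values are FPKM, reads per kilobase of gene, divided by a library term of the authors that was not the total reads. On this scale the median log2 change of all tested genes lay between -0.13 and 0.02 in the 5 comparisons of groups. Libraries held 14004929 to 17247201 reads. Reads on nuclear genes numbered 12059244 to 14665855 in the NC, ES10, P and P_ES10 libraries, 7813779 to 8060502 in P_ES50 and only 1230554 to 1466851 in ES50, where mitochondrial transcripts took 91.4% to 92.9% of reads. The median mitochondrial member rested on 12 to 14 reads in an ES50 library and on 98 to 119 in an NC library, so its values in ES50 are far less precise. Scaled to total reads instead, the median log2 change of all tested genes became -2.15 in place of -0.13 for ES50 versus NC, and -0.71 in place of -0.01 for P_ES50 versus P, so each direction is given on the deposited scale unless total reads are named. With total reads, 11458 of the 11917 tested genes were lower in ES50 versus NC at an adjusted p under 0.05 in limma. In P_ES50 versus P 10482 were. In bulk RNA, fewer cells of a type and less RNA per cell cannot be told apart.

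Untreated cells expressed the cytosolic set far above the mitochondrial set. Aars, the alanine enzyme, was highest at 91.5 ± 2.64 FPKM (SD, n = 3), followed by Nars (asparagine) at 78.0 ± 1.99, Gars at 75.2 ± 0.886 and Sars (serine) at 67.6 ± 3.30. The ranges of these 4 genes over the NC libraries did not overlap. Kars and Yars (tyrosine) overlapped at 44.3 ± 2.15 and 42.7 ± 0.315 FPKM, and each neighbouring pair in the run Qars, Hars, Vars, Rars and Farsa overlapped too. Iars, for isoleucine, was the lowest cytosolic member at 9.94 ± 0.509 FPKM, and its range overlapped that of Iars2, the highest mitochondrial member, at 10.0 ± 0.165. The cytosolic gene was higher in 15 of 16 pairs for the same amino acid, with Iars over Iars2 at a ratio of 0.991 as the exception. Without Mars2, the ratio of the pairs had a median of 15.1 and reached 40.5 for Sars over Sars2. Mars2 lay between 0 and 0.512 FPKM in all 18 libraries and had 2 to 21 reads a group, and no change is given for it.

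The summed level of the 19 cytosolic and shared genes was 783 ± 12.4 FPKM in NC, 789 ± 4.12 in ES10 and 567 ± 3.98 in ES50 (SD, n = 3). It was 713 ± 4.32 in P, 726 ± 4.06 in P_ES10 and 832 ± 4.91 in P_ES50, so the ES50 libraries were lowest and the P_ES50 libraries highest, with no overlap between those groups and the rest. The 17 mitochondrial genes summed to 45.9 ± 1.45 FPKM in NC and 46.2 ± 2.32 in ES50, which overlapped, and were highest in P at 54.3 ± 1.96. As a share of nuclear reads, which no library term affects, the cytosolic and shared genes took 0.409% ± 0.0035 in NC, 0.388% ± 0.004 in ES10 and 0.265% ± 0.002 in ES50. They took 0.369% ± 0.0012 in P, 0.359% ± 0.0026 in P_ES10 and 0.425% ± 0.0031 in P_ES50. By this share ES10 lay below NC and P_ES10 below P without overlap, although the mean FPKM sums of ES10 and P_ES10 were the higher ones. The mitochondrial genes took 0.0228% ± 0.00057 in NC, 0.0209% ± 0.00062 in ES10 and 0.0204% ± 0.0011 in ES50, and 0.0271% ± 0.0011 in P, 0.0225% ± 0.00012 in P_ES10 and 0.0215% ± 0.0015 in P_ES50. By this share the mitochondrial set too was lower in ES50 than in NC without overlap, while its FPKM sums overlapped.

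**Figure D1:**
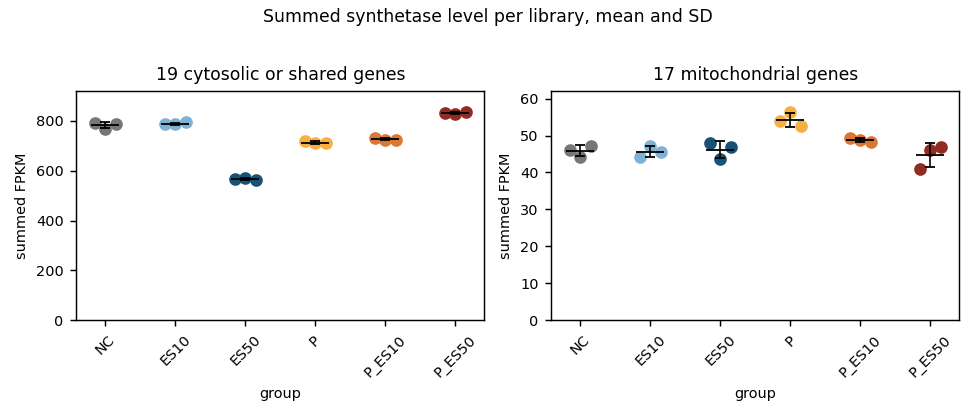
Summed FPKM of the 19 cytosolic or shared genes (left) and the 17 mitochondrial genes (right) in each library, by group, with points for libraries and bars for the mean and SD of 3. On the deposited scale the cytosolic sum was lowest in ES50, at 567, and highest in P_ES50, at 832, and the mitochondrial sum was highest in P, at 54.3. Scaled to total reads all 35 tested members were lower in ES50 than in NC and in P_ES50 than in P, beside 11458 and 10482 of 11917 genes.

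The promoters are shown because cytosolic and mitochondrial members differed in a short element. Promoters of 300 bases, from 250 before to 50 after the start site, came from RefSeq (build GRCr8), and 32 of 36 members matched by symbol or synonym. The letters TGATGNAA, the core of the element bound by C/EBP and ATF factors such as ATF4, were searched on both strands. They were present in 7 of 16 matched cytosolic promoters (43.8%), those of Aars, Cars, Iars, Mars, Nars, Tars and Yars. They were present in 0 of 16 mitochondrial promoters and in 3.98% of 33469 promoters of the same length. Stretches of up to 30 bases around 1 match in each of the 7 follow, 5′ to 3′ on the strand of the gene, with the match in capitals. TTGCATCA and TTTCATCA are the same letters read on the other strand.
Aars: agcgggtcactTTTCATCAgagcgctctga
Cars: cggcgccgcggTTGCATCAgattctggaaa
Iars: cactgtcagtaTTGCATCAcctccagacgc
Mars: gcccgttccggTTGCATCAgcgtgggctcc
Nars: cctaggtgatcTGATGCAAcgcttcagtca
Tars: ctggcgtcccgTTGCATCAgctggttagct
Yars: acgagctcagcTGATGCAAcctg
In order, they lie at chr19:55908480-55908509, chr1:208225334-208225363, chr17:15193658-15193687, chr7:65023752-65023781, chr18:60275778-60275807, chr2:62114811-62114840 and chr5:146820190-146820212, with Aars and Yars on the plus strand and the others on the minus strand. Counted from the start base of the table as 0, the matches shown begin at 9, 17, -24, -17, -14, -27 and 38. The ones shown for Aars, Cars and Yars thus lie after the start, which does not exclude further matches elsewhere in a promoter. Tars, the threonine enzyme, is shown with the 100 bases before its start, at chr2:62114803-62114902 on the minus strand, because all 3 elements searched occur in its 300-base promoter. Only the TGATGNAA match lies within these 100 bases, and the matches of the other elements, named below, lie outside them.
Tars, bases -100 to -1: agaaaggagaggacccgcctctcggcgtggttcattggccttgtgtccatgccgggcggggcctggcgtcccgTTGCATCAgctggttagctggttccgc
The letters GCGCANGC, the core of the element of NRF1, a regulator of nuclear genes for mitochondria, were in 25% of the matched cytosolic and 31.2% of the mitochondrial promoters, against 8.98% of all. CACGTG, the E-box bound by MYC and related factors, was in 31.2% of the cytosolic, 6.25% of the mitochondrial and 6.42% of all promoters. Overlaps between the 3 motifs were kept, and a match is a string of letters, not a measured binding site.

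Changes were tested with limma on log2(FPKM + 1) over 11917 genes, and a Benjamini-Hochberg adjusted p under 0.05 was called. Each gene has 1 spread, pooled over all 18 libraries, behind its SE and p-value in every comparison. Where a gene varied more in ES50, with its few nuclear reads, its SE and p-value are too small in comparisons and interactions with ES50. They are then too large in the others. On this scale a change of a low gene, and so of most mitochondrial members, is understated. ES10, ES50 and P were each compared with the same NC libraries, and P_ES10 and P_ES50 with the same P libraries, so these comparisons are not independent of each other.

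**Figure D2:**
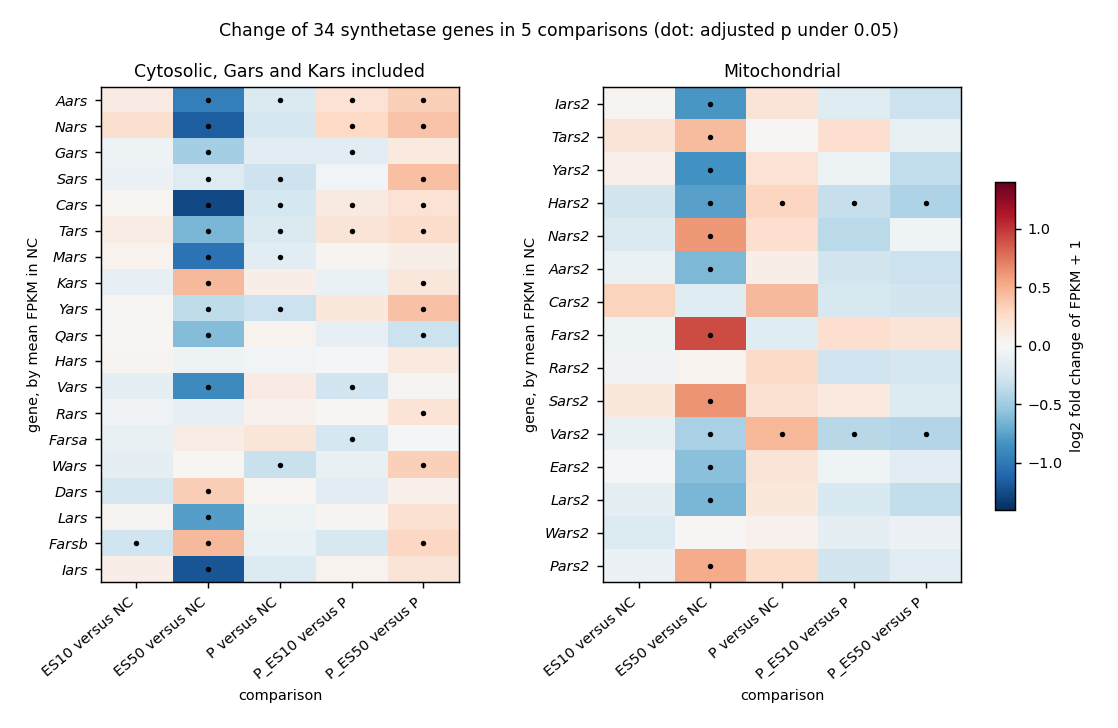
Log2 fold change of FPKM + 1 of 34 of the 35 tested members in 5 comparisons, with cytosolic and shared genes left and mitochondrial genes right, ordered by mean FPKM in NC. A dot marks an adjusted p under 0.05 in limma. In ES50 versus NC, 9 members were called higher and 19 lower, beside 31.9% and 40.1% of all tested genes. Scaled to total reads these counts were 0 and 35, beside 34 and 11458 of 11917 genes.

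Few synthetases were called after 10 pulses without PE. Farsb, the beta subunit of the phenylalanine enzyme, was the 1 member called, and it was lower. It stood at 12.4, 12.1 and 13.8 FPKM in the NC libraries and at 9.93, 9.81 and 11.4 in ES10, so all 3 ES10 libraries lay below all 3 of NC. The log2 change was -0.28 ± 0.08 (SE, adjusted p = 0.0395 in limma), and it lost the call without any 1 of the libraries compared other than ES10 replicate 3 (adjusted p 0.0607 to 0.179), and also without the filter on low values (0.0555). Of all tested genes, 6.36% were called higher and 2.21% lower in this comparison, against 0 and 1 of 35 members in limma. At an unadjusted p under 0.05, 4 members were higher, Cars2, Nars, Aars and Tars, and 5 lower, Farsb, Dars, Hars2, Kars and Vars. In voom on the recovered reads the counts were 1 higher and 10 lower, beside 1044 and 2105 of the 11917 genes. In the model without the ES50 libraries they were 3 and 4, beside 1699 and 875. The members' median was -0.05 and that of all genes 0.02. Nars and Cars2 had the largest estimates upward, 0.23 ± 0.08 (adjusted p = 0.109) and 0.31 ± 0.14 (adjusted p = 0.215), and neither passed.

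After 50 pulses without PE, most cytosolic synthetases fell on the deposited scale while the mitochondrial ones split. Of 35 members 9 were called higher and 19 lower, beside 31.9% higher and 40.1% lower of all tested genes, so a large share of calls was the rule in this comparison. The members' median log2 change was -0.36 and that of all genes -0.13. Among the 19 cytosolic and shared genes 3 rose and 12 fell, and among the 16 mitochondrial genes 6 rose and 7 fell. Scaled to total reads, all 35 were lower, with a member median of -2.86 against -2.15 for all genes. With quantile normalization 11 rose and 17 fell.

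Cars, the cysteine enzyme (ENSRNOG00000020651, chr1:216759366-216801656 in Rnor 6.0), fell most. It stood at 54.8, 55.0 and 55.6 FPKM in NC and at 23.5, 22.4 and 21.2 in ES50, a log2 change of -1.26 ± 0.04 (adjusted p = 2.82e-13). Every ES50 library lay under every other library of the study for this gene. Nars had 80.2, 76.2 and 77.6 FPKM in NC and 29.4, 33.7 and 41.5 in ES50, and its ES50 libraries spread more widely than those of Cars. Its change was -1.15 ± 0.08 (adjusted p = 3.57e-09), with an SE pooled over all groups that does not reflect this wider spread. Aars went from 90.8, 89.3 and 94.4 FPKM to 46.6, 44.1 and 49.0, a change of -0.96 ± 0.04 (adjusted p = 8.87e-12). Iars, Mars (methionine) and Vars (valine) completed the 6 largest falls, at -1.20 ± 0.11, -1.04 ± 0.04 and -0.89 ± 0.06. Iars was measured with 156 reads over the 3 ES50 libraries against 4188 in NC.

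The largest rises reported here were in class II genes, all but Kars mitochondrial. Fars2, the mitochondrial phenylalanine enzyme (ENSRNOG00000016135, chr17:29006988-29438668 in Rnor 6.0), stood at 2.16, 2.14 and 1.70 FPKM in NC and at 5.81, 2.94 and 5.71 in ES50. The groups did not overlap, yet the ES50 libraries together held 66 reads of the gene and differed from each other by more than the NC libraries did. The change was 0.92 ± 0.18 (adjusted p = 2.31e-04). Sars2, Nars2 and Pars2, for serine, asparagine and proline, rose by 0.63, 0.60 and 0.52 on 55, 70 and 43 ES50 reads. Kars was the well-measured rise: it had 46.1, 41.9 and 44.8 FPKM in NC and 58.7, 59.8 and 64.8 in ES50, without overlap, a change of 0.46 ± 0.05 (adjusted p = 7.00e-07). Scaled to total reads these rises became falls, from -0.75 for Pars2 to -2.86 for Kars. The added 1 in log2(FPKM + 1) limits the fall of a low gene, and Pars2 averaged only 0.952 FPKM in NC. The sizes of these falls are therefore not comparable between genes.

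On the deposited scale the called class I genes all fell, while class II genes split. Of 17 tested class I genes 12 were called lower in ES50 versus NC and the other 5 were not called, with a median of -0.61. Of 18 class II genes 9 were called higher and 7 lower, with a median of 0.23, whereas scaled to total reads all of both classes were lower. Beside these counts, 31.9% of all tested genes were called higher and 40.1% lower, and the share of class II genes called lower is near the latter. Gene length moved with the change as well. Across the 19 cytosolic and shared genes Spearman's rho between gene length and log2 change was -0.674, across the 16 mitochondrial genes -0.162, and across all 11917 genes -0.253. These points share libraries and are given as a description. The parts of class and of length in the result were not tested.

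**Figure D3:**
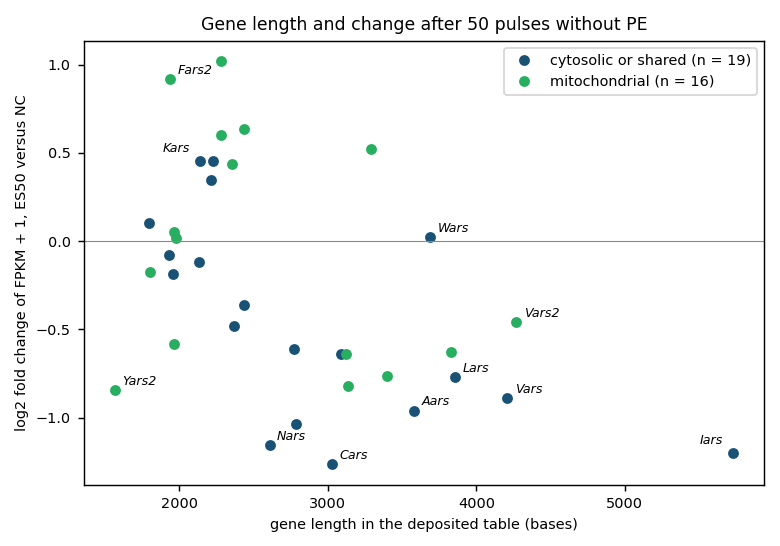
Gene length in the deposited table (bases, x axis) against the log2 fold change of FPKM + 1 in ES50 versus NC (y axis), 1 point for each of 35 members, cytosolic and shared in blue and mitochondrial in green. Longer cytosolic genes lay lower (rho = -0.674, n = 19), mitochondrial genes less so (rho = -0.162, n = 16), and scaled to total reads all 35 changes lay under 0. With that scaling 11458 of 11917 genes were called lower.

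Cytosolic and mitochondrial enzymes of the same amino acid did not always move together after 50 pulses. Of 13 pairs with 1 tested gene in each compartment, 5 were lower in both, for alanine, isoleucine, leucine, tyrosine and valine. In 3 pairs, for asparagine, serine and threonine, the cytosolic gene fell and the mitochondrial gene rose, whereas scaled to total reads both members of each pair were lower. Tars fell by 0.64 on the log2 scale while Tars2 rose by 0.44, and Sars fell by 0.19 while Sars2 rose by 0.63. For the arginine and tryptophan pairs neither gene passed.

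After 48 h in PE, 7 cytosolic synthetases were slightly lower, while 2 mitochondrial ones were called higher, near the share of all genes. No fit with 1 library left out called more than 1 member higher. In P versus NC 2 members were called higher and 7 lower, beside 4.72% higher and 4.81% lower of all tested genes. All 7 lower members were cytosolic (of 19) and the 2 higher ones mitochondrial (of 16). Scaled to total reads the 35 members gave 9 higher and 3 lower, beside 2766 and 636 of the 11917 genes. The model without the ES50 libraries gave 6 higher and 9 lower, beside 1641 and 1559. The members' median was 0.06, that of the cytosolic and shared genes -0.15 and that of the mitochondrial genes 0.19, against 0.00 for all genes.

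Yars stood at 42.7, 43.0 and 42.4 FPKM in NC and at 35.4, 34.0 and 33.8 in P, a change of -0.31 ± 0.07 (adjusted p = 0.00883). Sars stood at 68.9, 63.8 and 70.0 in NC and at 55.5, 53.4 and 55.9 in P, a change of -0.29 ± 0.04 (adjusted p = 5.48e-04). Wars (tryptophan) went from 22.3 ± 0.597 to 17.8 ± 0.741 FPKM, a change of -0.31 ± 0.08 (adjusted p = 0.0227), and lost the call without any 1 of the libraries other than P replicate 2 (adjusted p 0.0522 to 0.0908). In each of these 3 genes every P library lay below every NC library. Cars, Tars and Aars fell by 0.25, 0.21 and 0.20, with adjusted p of 0.00118, 0.00748 and 0.00543, and Mars by 0.15. Scaled to total reads, Wars, Tars and Aars were not called (adjusted p = 0.0559, 0.16 and 0.197). Nars had an estimate of -0.24 ± 0.08 with an adjusted p of 0.0836 and was not called.

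Vars2, the mitochondrial valine enzyme, was the larger of the 2 rises. It stood at 1.56, 1.56 and 1.76 FPKM in NC and at 3.01, 2.73 and 2.20 in P, without overlap and with the spread mostly among the P libraries. The change was 0.47 ± 0.12 (adjusted p = 0.0263). Hars2, the mitochondrial histidine enzyme, stood at 3.49, 4.06 and 4.11 in NC and at 4.84, 5.24 and 4.97 in P, a change of 0.30 ± 0.09 (adjusted p = 0.0469). Vars2 lost the call without any 1 of the libraries other than P replicate 3 (adjusted p 0.0525 to 0.122) and Hars2 without any 1 of the 6 (0.0785 to 0.198). Hars2 also lost it with a pseudocount of 0.1 (0.0699) and without the filter on low values (0.0755). Its cytosolic partner Hars lies head to head with Hars2 on chromosome 18 of Rnor 6.0, at chr18:29611547-29629087 on the minus strand against chr18:29629184-29638721 on the plus strand, with 97 bases between the 2 annotated starts. Hars had 30.5 ± 2.13 FPKM in NC and 29.5 ± 0.414 in P, with overlapping libraries, and an estimate of -0.04 ± 0.07 (adjusted p = 0.808). The strandedness of the libraries is not given in the sources used here, so reads where the 2 genes might overlap cannot be assigned with certainty.

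In cells kept in PE, 4 cytosolic synthetases rose and 5 members fell after 10 pulses, of 35 members tested, near the shares of all genes. P_ES10 versus P had 13.2% of all tested genes called higher and 9.66% lower. The share of members called higher was a little under that of all genes, and the share called lower a little above. Whether these shares differ was not tested. The members' median was -0.10 against 0.00 for all genes. The split depended on the scaling. Scaled to total reads the counts were 0 higher and 17 lower, beside 1627 and 3117 of the 11917 genes. With quantile normalization they were 3 and 8, beside 1572 and 1642. In voom on the recovered reads they were 3 and 18, beside 1964 and 3400. In the model without the ES50 libraries they were 6 and 9, beside 2498 and 2218. Nars stood at 65.2, 66.0 and 67.2 FPKM in P and at 79.5, 79.7 and 82.9 in P_ES10, with no overlap, a change of 0.28 ± 0.08 (adjusted p = 0.0192). Aars rose from 79.4 ± 0.336 to 91.6 ± 1.79 FPKM, by 0.20 ± 0.04 (adjusted p = 0.0019). Tars and Cars rose by 0.18 and 0.13, with adjusted p of 0.00789 and 0.0312. None of the 4 was called when scaled to total reads (adjusted p 0.068 to 0.55), nor was Cars with quantile normalization (0.155) or in voom (0.178). All 4 carry the TGATGNAA letters shown above, and the 4 also had estimates above 0 in ES10 versus NC, none of which passed.

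The 5 lower members came from both compartments. Vars stood at 32.7, 29.7 and 29.7 FPKM in P and at 24.7, 25.7 and 25.4 in P_ES10, a change of -0.27 ± 0.06 (adjusted p = 0.00334). Vars2 fell by 0.38 ± 0.12 (adjusted p = 0.0348), from 2.65 ± 0.414 to 1.80 ± 0.324 FPKM, and the P_ES10 libraries overlapped those of NC. It was not called with a pseudocount of 0.1 (adjusted p = 0.0582) or without the filter (0.0563). Hars2 stood at 3.76, 3.76 and 3.95 FPKM, under all P libraries, a change of -0.32 ± 0.09 (adjusted p = 0.0183). Farsa, the alpha subunit of the phenylalanine enzyme, and Gars fell by 0.24 and 0.16, with adjusted p of 0.0181 and 0.0259. With libraries left out 1 at a time, Nars lost the call without P replicate 1 or 2 or P_ES10 replicate 3 (adjusted p 0.0533 to 0.0704), and Cars without any but P replicate 3 (0.0563 to 0.122). Vars2 lost it without P replicate 1 or 2 or P_ES10 replicate 1 or 3 (0.0538 to 0.169), and Hars2 without P replicate 2 or P_ES10 replicate 1 or 2 (0.0576 to 0.0726). Farsa lost it without P replicate 2 or 3 or P_ES10 replicate 3 (0.0611 to 0.0715), and Gars without P replicate 1 or 2 or P_ES10 replicate 2 or 3 (0.0582 to 0.115). Vars, Aars and Tars kept it in each such fit.

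In cells kept in PE, many cytosolic synthetases rose after 50 pulses on the deposited scale. P_ES50 versus P gave 10 members higher and 3 lower, beside 14.1% and 14.2% of all tested genes. All 10 were cytosolic or shared (of 19), and of the 16 mitochondrial members 2 fell and 14 were not called. Scaled to total reads, however, all 35 members were lower, beside 10482 of the 11917 genes. Voom on the recovered reads gave 12 higher and 7 lower, beside 2215 and 2801 of all genes. The model without the ES50 libraries gave 13 higher and 7 lower, beside 2577 and 2805. The median was 0.19 for the cytosolic and shared genes and -0.22 for the mitochondrial genes, against -0.01 for all genes.

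Sars rose most. It stood at 55.5, 53.4 and 55.9 FPKM in P and at 76.1, 70.7 and 75.5 in P_ES50, a change of 0.43 ± 0.04 (adjusted p = 4.09e-06), and all P_ES50 libraries lay above all NC libraries too. Yars stood at 35.4, 34.0 and 33.8 in P and at 45.1, 47.4 and 45.8 in P_ES50, a change of 0.41 ± 0.07 (adjusted p = 2.72e-04). Nars, Aars and Wars rose by 0.39, 0.34 and 0.33, with adjusted p of 0.00196, 2.24e-05 and 0.00492. Farsb rose by 0.30 ± 0.08 (adjusted p = 0.0108), while Farsa, whose protein pairs with it in 1 enzyme, had an estimate of -0.02 ± 0.07 (adjusted p = 0.866). Tars, Cars, Rars and Kars rose by 0.25, 0.21, 0.19 and 0.16. Qars, the glutamine enzyme, was the 1 cytosolic member that fell: it stood at 32.9, 32.5 and 32.2 FPKM in P and at 26.0, 27.6 and 25.3 in P_ES50, a change of -0.30 ± 0.06 (adjusted p = 9.19e-04). Hars2 and Vars2 fell by 0.43 ± 0.09 and 0.41 ± 0.12 (adjusted p = 0.00216 and 0.0217). Farsb lost the call without P replicate 3 (adjusted p = 0.054), and Vars2 without P replicate 1 or 2 or P_ES50 replicate 1 (0.0715 to 0.102) and with quantile normalization (0.0502).

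**Figure D4:**
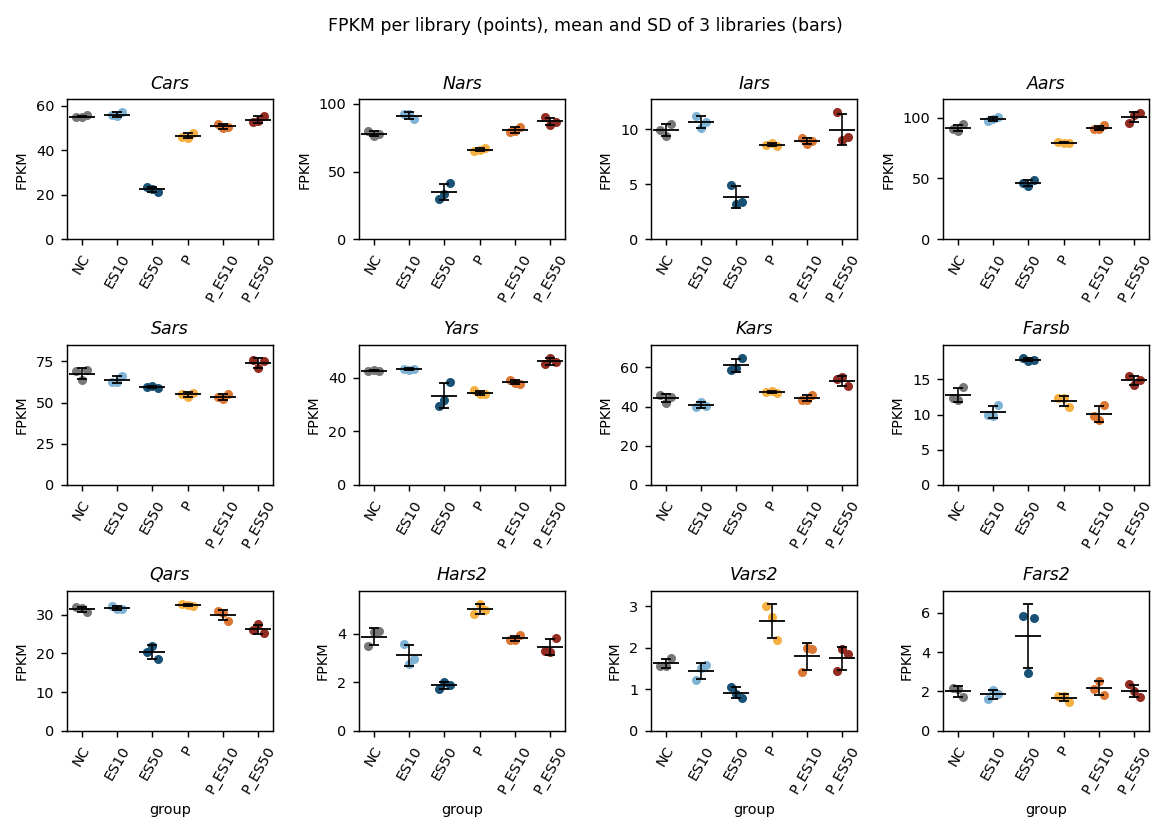
FPKM of 12 members in each library by group, with points for libraries and bars for the mean and SD of 3, on axes that start at 0. Cars, Nars, Iars and Aars were lowest in ES50, Kars, Farsb and Fars2 were highest there, and Hars2 and Vars2 were highest in P. Scaled to total reads Kars, Farsb and Fars2 were lower in ES50 than in NC.

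The 2 shared genes moved in opposite directions after 50 pulses without PE, and both had estimates above 0 after 50 pulses with PE. Gars averaged 75.2 ± 0.886 FPKM in NC, 71.6 ± 0.673 in ES10, 53.7 ± 4.51 in ES50, 67.7 ± 1.48 in P, 60.5 ± 2.10 in P_ES10 and 74.2 ± 1.52 in P_ES50 (SD, n = 3 a group here and in the sentences that follow). Kars stood at 44.3 ± 2.15 FPKM in NC, 40.7 ± 1.42 in ES10, 61.1 ± 3.25 in ES50, 47.4 ± 0.465 in P, 44.3 ± 1.53 in P_ES10 and 53.1 ± 2.50 in P_ES50. On the deposited scale Gars fell by 0.48 ± 0.05 in ES50 versus NC (adjusted p = 2.26e-07), where Kars rose, and scaled to total reads both were lower. In P_ES50 versus P Gars had an estimate of 0.13 ± 0.05 (adjusted p = 0.0505) and Kars rose by 0.16 ± 0.05 (adjusted p = 0.027), and scaled to total reads both were lower there too. The interaction with 50 pulses was 0.61 ± 0.07 for Gars and -0.30 ± 0.07 for Kars (adjusted p = 1.46e-06 and 0.002). Farsa and Farsb encode the subunits of the cytosolic phenylalanine enzyme, a tetramer that needs both. Farsa had 25.0 ± 0.975 FPKM in NC, 23.1 ± 0.670 in ES10, 26.9 ± 3.00 in ES50, 28.3 ± 1.26 in P, 23.8 ± 0.661 in P_ES10 and 27.9 ± 1.72 in P_ES50. Farsb had 12.8 ± 0.933 FPKM in NC, 10.4 ± 0.860 in ES10, 17.8 ± 0.217 in ES50, 11.9 ± 0.734 in P, 10.1 ± 1.12 in P_ES10 and 14.8 ± 0.672 in P_ES50. Farsb rose by 0.45 ± 0.08 in ES50 versus NC (adjusted p = 9.16e-05), while Farsa had an estimate of 0.10 ± 0.07 (adjusted p = 0.198), and the difference between the subunits was not tested. Of the head-to-head pair, Hars had 30.5 ± 2.13 FPKM in NC, 31.3 ± 0.880 in ES10, 29.0 ± 3.88 in ES50, 29.5 ± 0.414 in P, 29.0 ± 0.499 in P_ES10 and 32.5 ± 0.291 in P_ES50. Hars2 had 3.88 ± 0.344 FPKM in NC, 3.11 ± 0.426 in ES10, 1.87 ± 0.145 in ES50, 5.02 ± 0.205 in P, 3.82 ± 0.106 in P_ES10 and 3.47 ± 0.330 in P_ES50. Hars2 fell by 0.77 ± 0.09 in ES50 versus NC (adjusted p = 1.55e-06), and Hars was called in none of the 5 group comparisons (adjusted p 0.201 to 0.851).

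The response to 50 pulses differed between cells with and without PE. The interaction, the change with PE minus the change without, was called higher for 16 members and lower for 8, beside 31.1% and 27.9% of all tested genes. The members' median was 0.31 against 0.05 for all genes. Of the 19 cytosolic and shared genes 14 were higher and 2 lower, and all 9 cytosolic class I genes were higher. Of the 16 mitochondrial genes 2 were higher and 6 lower. Scaled to total reads, where the median of all genes was 1.41, 34 members were higher and 0 lower. Of the 11917 genes 10393 were higher and 21 lower there. Nars had the largest interaction, 1.55 ± 0.11 (adjusted p = 1.73e-08), followed by Cars at 1.47 ± 0.06 and Iars at 1.38 ± 0.16. On the negative side Sars2 was at -0.83 ± 0.23 (adjusted p = 0.00653). Nars2, at -0.66 ± 0.23, lost the call without NC replicate 3, ES50 replicate 3, P replicate 2 or P_ES50 replicate 1 (adjusted p 0.0511 to 0.0583), and in voom on the recovered reads (0.0515). For 10 pulses the interaction was called for 0 of 35 members in either direction in limma, beside 0.562% higher and 0.344% lower of all tested genes. At an unadjusted p under 0.05, Cars2 alone passed, at -0.53 ± 0.20. Voom on the recovered reads called 0 higher and 1 lower, beside 416 and 351 of all genes.

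Members with and without the TGATGNAA letters are set side by side here. The shares of all tested genes called higher and lower were 31.9% and 40.1% in ES50 versus NC, 4.72% and 4.81% in P versus NC, 13.2% and 9.66% in P_ES10 versus P, and 14.1% and 14.2% in P_ES50 versus P. In ES50 versus NC all 7 with a match were lower (median -1.04). Of 9 cytosolic members without a match 2 were higher and 4 lower (median -0.08), near the shares of all genes. In P versus NC 5 of the 7 were lower, against 2 of the 9, and the others were not called. In P_ES10 versus P 4 of the 7 rose, while 2 of the 9 fell, and in P_ES50 versus P 5 of the 7 rose, while of the 9 without 4 rose and 1 fell. The interaction with 50 pulses was higher for all 7 (median 1.30) and for 5 of the 9 (median 0.31), beside 31.1% of all genes. The directions with 50 pulses hold on the deposited scale, since scaled to total reads all members were lower in ES50 versus NC and in P_ES50 versus P. Scaled so, the 4 that rose in P_ES10 versus P were not called (adjusted p 0.068 to 0.55 in limma). Of the 5 lower in P versus NC, Tars and Aars were not called either (0.16 and 0.197). The 7 genes with a match were also longer, at a median of 3031 bases against 2224 for the 9 without, and the part of length was not tested. The 16 tested mitochondrial members had medians of -0.08, 0.19, -0.19 and -0.22 in the same 4 group comparisons.

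**Figure D5:**
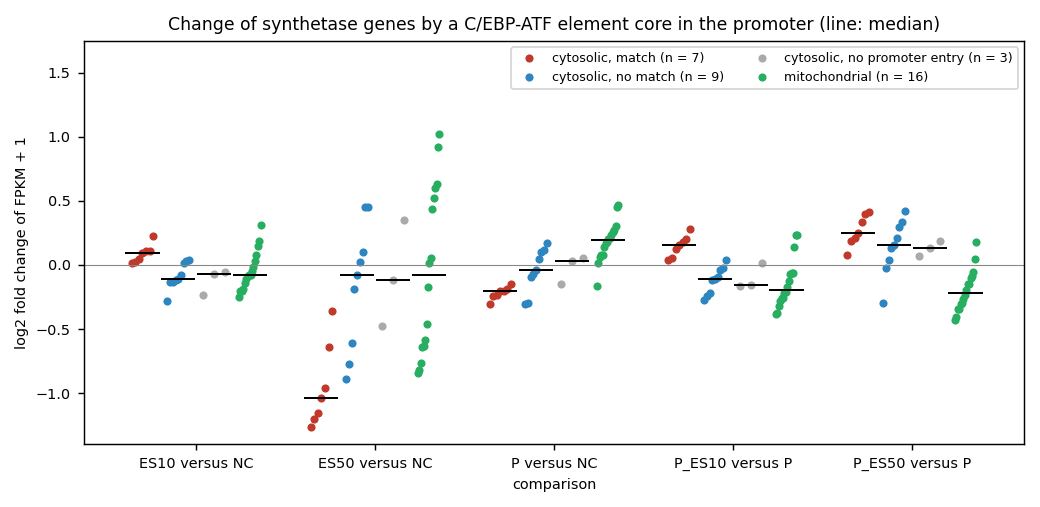
Log2 fold change of FPKM + 1 of 35 members in 5 comparisons, split by the letters TGATGNAA in the promoter, with a point for each gene and a line at the median. The 7 cytosolic genes with a match were lower in ES50 versus NC (median -1.04) and lay above 0 in P_ES10 versus P and P_ES50 versus P. Scaled to total reads all 35 members were lower in ES50 versus NC and in P_ES50 versus P, beside 11458 and 10482 of 11917 genes. On that scale Nars, Aars, Tars and Cars, the genes with a match called higher in P_ES10 versus P, were not called.

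Genes of the multisynthetase complex moved in both directions after 50 pulses without PE, as all tested genes did. Of its 11 tested genes 5 were called higher and 5 lower in ES50 versus NC, beside 31.9% and 40.1% of all tested genes. Eprs stood at 85.6, 87.2 and 87.0 FPKM in NC and at 31.1, 30.9 and 39.3 in ES50, a change of -1.34 ± 0.06 (adjusted p = 3.25e-11). Its scaffolds went the other way on the deposited scale: Aimp1 rose by 0.59 ± 0.09, Aimp2 by 0.57 ± 0.08 and Eef1e1 by 0.35 ± 0.07. Of the 7 members in the complex, Iars, Mars, Lars and Qars fell, Kars and Dars rose, and Rars had an estimate of -0.12 ± 0.06 (adjusted p = 0.0893). In P_ES50 versus P, Kars, Rars, Aimp1 and Eef1e1 rose and Qars fell among the 11 genes of the complex tested. Of all tested genes 14.1% rose and 14.2% fell there. Over the 6 groups Eprs averaged 86.6 ± 0.862 FPKM in NC, 89.3 ± 0.602 in ES10, 33.8 ± 4.78 in ES50, 75.5 ± 1.21 in P, 69.2 ± 0.821 in P_ES10 and 83.3 ± 0.543 in P_ES50. The scaffold Aimp1 averaged 29.2 ± 3.75 FPKM in NC, 27.8 ± 1.41 in ES10, 44.6 ± 5.95 in ES50, 33.0 ± 1.09 in P, 28.6 ± 1.01 in P_ES10 and 39.5 ± 1.26 in P_ES50. Aimp2 lay at 32.4 ± 1.20 FPKM in NC, 35.4 ± 2.88 in ES10, 48.7 ± 6.63 in ES50, 32.9 ± 1.78 in P, 33.5 ± 1.27 in P_ES10 and 35.3 ± 1.18 in P_ES50. Eef1e1, the lowest of the 4, lay at 8.75 ± 0.168 FPKM in NC, 9.31 ± 0.0579 in ES10, 11.4 ± 0.752 in ES50, 8.50 ± 0.975 in P, 8.82 ± 0.130 in P_ES10 and 10.8 ± 0.433 in P_ES50. Eprs was lowest in ES50 and the 3 scaffolds were highest there. The interaction with 50 pulses was 1.48 ± 0.09 for Eprs, -0.47 ± 0.12 for Aimp2 and -0.34 ± 0.13 for Aimp1, all called, and -0.02 ± 0.10 for Eef1e1 (adjusted p = 0.862), which was not.

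Other genes on the path of charged tRNA were counted from lists. The amino acid response list, which holds Atf4 and genes for amino acid synthesis and uptake, had 15 tested members. In ES50 versus NC 12 of them fell and 3 were not called, where 40.1% of all tested genes fell. In P versus NC 12 fell and 3 were not called as well, where 4.81% of all genes fell. In P_ES10 versus P 8 rose and 1 fell, beside 13.2% and 9.66% of all genes, and in P_ES50 versus P 13 rose and 1 fell, beside 14.1% and 14.2%. Slc7a5, a transporter of large neutral amino acids, fell by 2.52 in ES50 versus NC and Slc3a2, its partner subunit, by 1.82. Slc7a11, the cystine transporter, rose by 2.13 ± 0.10 in P_ES50 versus P. All 6 elongation factor genes, whose proteins carry or help to carry charged tRNA to the ribosome, rose in ES50 versus NC, where 31.9% of all genes did, led by Eef1g at 0.94 ± 0.03. Among 14 tRNA maturation genes 1 rose and 6 fell there, and the share that fell is near the 40.1% of all genes. Xpot, the export receptor of tRNA, was at -1.04 ± 0.08. Xpot also fell in P versus NC, by 0.46, and rose in P_ES10 and P_ES50 versus P, by 0.26 and 0.30.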

How the data were processed

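RNA-seq values of 18 libraries were used as deposited. They are FPKM per gene, made by the authors on Rnor 6.0, per the submitters' processing notes; the sources used here do not name the aligner, counter, annotation release or strandedness. Deposited FPKM times gene length gave whole reads for 100% of genes (tolerance 0.01 of a read), and reads were recovered this way.

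Testing covered the 11917 of 32545 genes for which 3 or more libraries held an FPKM of 1 or above, taken as log2(FPKM + 1), pseudocount 1, with limma 3.58.1 in R 4.3.3 (lmFit, contrasts.fit, eBayes with trend), in 1 model of 6 group means. Benjamini-Hochberg adjustment was made per contrast, with calls at an adjusted p under 0.05. Named were up to 6 called members with the largest change in each direction of a contrast, all groups for Gars, Kars, Farsa, Farsb, Hars, Hars2, Eprs, Aimp1, Aimp2 and Eef1e1, and up to 4 genes of a related list by smallest adjusted p; members named beyond this were chosen after their values were seen. Results of 1 member and 1 promoter stretch are not reported here. The fit was tested on simulated data. The alternatives were a pseudocount of 0.1, no filter, scaling to total reads (anchored at NC), quantile normalization, a fit of the compared groups only, voom on recovered reads, a replicate block, each library left out, and, added after the data were seen, the model without ES50. In voom the library size was the number of reads on nuclear genes. The R package data.table, version 1.17.8, read the files. Python 3.11.15, pandas 2.3.3, numpy 2.4.6 and matplotlib 3.10.9 served for summaries and plots. Promoters came from RefSeq (GRCr8). The members, lists and motifs were chosen with earlier results of these data known.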

Additional observations from a re-analysis of the deposited data

Results flagged for a closer look

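The response to 50 pulses differed between cells with PE and cells without, by the interaction term in limma, for 16 members higher and 8 lower of 35, beside 31.1% and 27.9% of all tested genes. Those reported here are given as log2 differences of the change with PE minus the change without. Nars was at 1.55, Cars at 1.47, Iars at 1.38, Aars at 1.30, Mars at 1.11 and Lars at 0.98. On the negative side Sars2 was at -0.83, Fars2 at -0.74, Pars2 at -0.67, Nars2 at -0.66 and Tars2 at -0.54. Scaled to total reads the 5 negative ones turned positive. These genes were chosen by the size of the difference, and calls crossed the compartments: Iars2 (0.52) and Hars2 (0.33), both mitochondrial, were also higher, and Dars (-0.28) and Kars (-0.30) lower. In ES50 the mitochondrial genes rested on few reads, with 43 for Pars2 and 143 for Tars2 over 3 libraries, and mitochondrial transcripts took 91.4% to 92.9% of the reads there. The part of either in these differences was not tested.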

How the results depend on the processing

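Scaling to total reads reversed 16 named values. It gave 4 members lower in ES10 versus NC, 0 higher and 35 lower in ES50 versus NC, 9 higher and 3 lower in P versus NC, 0 higher and 17 lower in P_ES10 versus P, and 0 higher and 35 lower in P_ES50 versus P. The interaction gave 1 lower for 10 pulses, and 34 higher and 0 lower for 50 pulses. Of the 11917 genes it called 924 lower in ES10 versus NC, and 34 higher and 11458 lower in ES50 versus NC. It called 2766 and 636 in P versus NC, 1627 and 3117 in P_ES10 versus P, and 92 and 10482 in P_ES50 versus P. For the interaction it called 299 lower with 10 pulses, and 10393 higher and 21 lower with 50 pulses. In ES50 versus NC it reversed Fars2 (-1.09), Sars2 (-1.07), Nars2 (-1.33), Pars2 (-0.75) and Kars (-2.86). The size of such a value depends on the level of the gene, through the pseudocount of 1. In P_ES50 versus P it reversed Sars (-0.46), Yars (-0.46), Nars (-0.49), Aars (-0.55), Wars (-0.52) and Farsb (-0.53). In the interaction with 50 pulses it reversed Sars2 (0.35), Fars2 (0.72), Pars2 (0.18), Nars2 (0.65) and Tars2 (1.16). None of the other alternatives reversed a value named with full statistics.

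In ES10 versus NC the count of lower members was 0 without a filter, 5 with quantile normalization, 3 when only the compared groups were fitted, 10 with voom and 4 in the model without ES50, and the count of higher members was 2 with the compared groups, 1 with voom and 3 in the model without ES50. In the same order, all genes called lower numbered 209, 534, 721, 2105 and 875, and those called higher 1525, 1044 and 1699. In P versus NC the count higher was 1 with a pseudocount of 0.1, 1 without a filter, 5 with the compared groups, 6 with voom and 6 in the model without ES50. Over all genes these counts were 471, 465, 1420, 1739 and 1641. In P_ES10 versus P the count lower was 8 with quantile normalization, 18 with voom and 9 in the model without ES50. Over all genes these counts were 1642, 3400 and 2218. In P_ES50 versus P the count lower was 5 with the compared groups, 7 with voom and 7 in the model without ES50. Over all genes these were 2181, 2801 and 2805. In the interaction with 10 pulses the count lower was 1 with the compared groups and 1 with voom, beside 369 and 351 over all genes. The cause of these differences was not tested.

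With each library left out in turn, the counts ranged from 0 to 1 lower in ES10 versus NC, 9 to 10 higher and 18 to 21 lower in ES50 versus NC, and 0 to 1 higher and 5 to 6 lower in P versus NC. They ranged from 2 to 4 higher and 1 to 5 lower in P_ES10 versus P, 7 to 9 higher and 2 to 4 lower in P_ES50 versus P, and 13 to 18 higher and 6 to 8 lower in the interaction with 50 pulses. Over all genes, P versus NC gave 270 to 386 higher and 322 to 377 lower in these fits, against 563 and 573 with all libraries. Of 360 named values so recomputed, 309 kept the call, 51 lost it and 0 reversed. Deviations of libraries that share a replicate number had correlations of -0.088 to 0.101 over 15 pairs, 1 of them over 0.1. Pairs with unlike numbers had correlations of -0.095 to 0.092. In ES10 versus NC all same-number values were above 0, at 0.034 to 0.101, and unlike ones ran from -0.095 to 0.005. In the other comparisons same-number values ran from -0.088 to 0.035. Whether libraries of 1 number share a culture or batch cannot be told from such values, and the labels give only the number. A replicate block gave 1 member higher in P versus NC, where Hars2 had an adjusted p of 0.0673, and no other call of a named gene changed. Depth limits the mitochondrial genes in ES50, at a median of 12 to 14 reads a library.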
